A study of Mus musculus with 6 samples.

Results

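Mitosis genes were followed in the retinal progenitor cells (RPCs) of mouse embryos with and without Pax6, as a list of 58 genes of the mitotic spindle, the kinetochore, the condensin complex and the kinases and cyclins that drive division. Membership goes by function and uses no array value. For each gene the probe set of highest average intensity was taken, the average being over all 6 arrays, and 57 of the 58 had a probe set that names only that gene, out of 18193 genes measured in this way. Ccnb1, the gene of cyclin B1, was not analysed here because no probe set carries its name in the annotation used. The 57 genes were placed in 9 groups by role, which held 6 genes of cyclins, CDK1 and their direct regulators, 7 mitotic kinases, 3 chromosomal passenger proteins, 7 genes of the spindle checkpoint and the anaphase-promoting complex (APC/C), 10 centromere and kinetochore genes, 8 kinesins, 5 spindle assembly genes, 4 cytokinesis genes and 7 genes of condensin and mitotic chromosomes.

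The arrays compared control RPCs (Pax6+/+;α-Cre) with mutant RPCs (Pax6loxP/loxP;α-Cre), isolated from the eyes of ICR embryos at embryonic day 12 (E12) by sorting for GFP, with 3 pools of cells in each group and 1 Affymetrix array for each pool. The α-Cre transgene, which the cells of both groups carried, uses a Pax6 promoter and the peripheral retina enhancer to drive Cre together with GFP in the distal part of the optic cup. In the mutant, loxP sites surround the initiator ATG and the exons of the paired domain. Values are log2 intensities, a log2 fold change (or log2 change) is the mutant mean minus the control mean, and p-values measure the spread between these pools only. Of 5 Pax6 probe sets, 1 fell, from 6.34, 6.44 and 6.14 in control to 4.79, 4.88 and 4.45 in mutant pools (log2 fold change -1.60, adjusted p = 0.00329 from limma), and the other 4 did not pass (lowest adjusted p = 0.204 from limma). Where they lie relative to the deleted exons was not known here. All 10 retinal progenitor markers measured were among the top 25% of genes by level. So were 11 of 13 pigment epithelium markers and 9 of 14 lens and surface ectoderm markers. The embryonic globin gene Hbb-y read 12.52 in control and 12.59 in mutant pools (means of 3). Below, control and mutant RPCs stand for these sorted pools, in which markers of other tissues were also read.

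A cell enters mitosis when CDK1 bound to cyclin B becomes active. Aurora and Polo-like kinases then mature the centrosomes, condensin and topoisomerase II compact the chromosomes, and kinetochores built on the centromeres attach them to the spindle. The spindle checkpoint holds back the APC/C until all kinetochores are attached, after which cyclin B is degraded, the chromosomes part and the central spindle directs cytokinesis. Most of these genes are transcribed only late in the cell cycle, so that in a tissue their transcripts mark dividing cells. In the early retina those are the RPCs, whose nuclei migrate to the apical surface to divide.

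Transcripts of most of the mitotic genes were lower in the sorted pools of Pax6-deficient RPCs, with log2 fold changes from -0.63 (Ncapd2) to 0.02 (Cdc25b). At an adjusted p under 0.10 from limma with no limit on the fold, 39 of the 57 genes fell and none rose. Of all genes 5.22% fell and 7.15% rose. The fold limit was left out because earlier results of these data had shown mitotic changes below the 1.5-fold of the methods. The median log2 fold change of the mitotic genes was -0.33, which is 79.5% of the control level, against -0.01 over all genes. The log2 fold change was negative for 56 of the 57, against 52.9% of all genes, and the exception was Cdc25b. At an unadjusted p under 0.05, 50 of the 57 were lower, against 11.6% of all genes, and 11 of these were among the 18 that did not pass after adjustment. On the same arrays 6 of 10 retinal progenitor markers also fell, while 11 of 13 markers of pigment epithelium, 6 of 11 of mesenchyme and 7 of 10 of endothelium rose, and the part of these in the mitotic result was not tested.

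All but 2 of the changes stayed below the fold of 1.5 that the methods ask for. Under the methods' rule (fold change of 1.5, p under 0.05 and a false discovery rate of 10%), 2 of the 57 genes were called lower and none higher, against 0.918% of all genes called lower and 2.28% called higher. The called genes were Ncapd2, with a log2 change of -0.63, and Nusap1, with one of -0.59. Just short of the 1.5-fold limit were Prc1 (-0.56), Ect2 (-0.55) and Aurka (-0.53). Prc1 and Aurka depended on the probe sets used, with -0.32 for Prc1 when probe sets of types that can bind related transcripts were left out and -0.29 for Aurka by the median of its probe sets, of which the second lay below the array median. For 44 of the 57 genes the 95% interval left out a fall of 1.5-fold, while 33 were at least 1.25-fold lower.

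**Figure D1:**
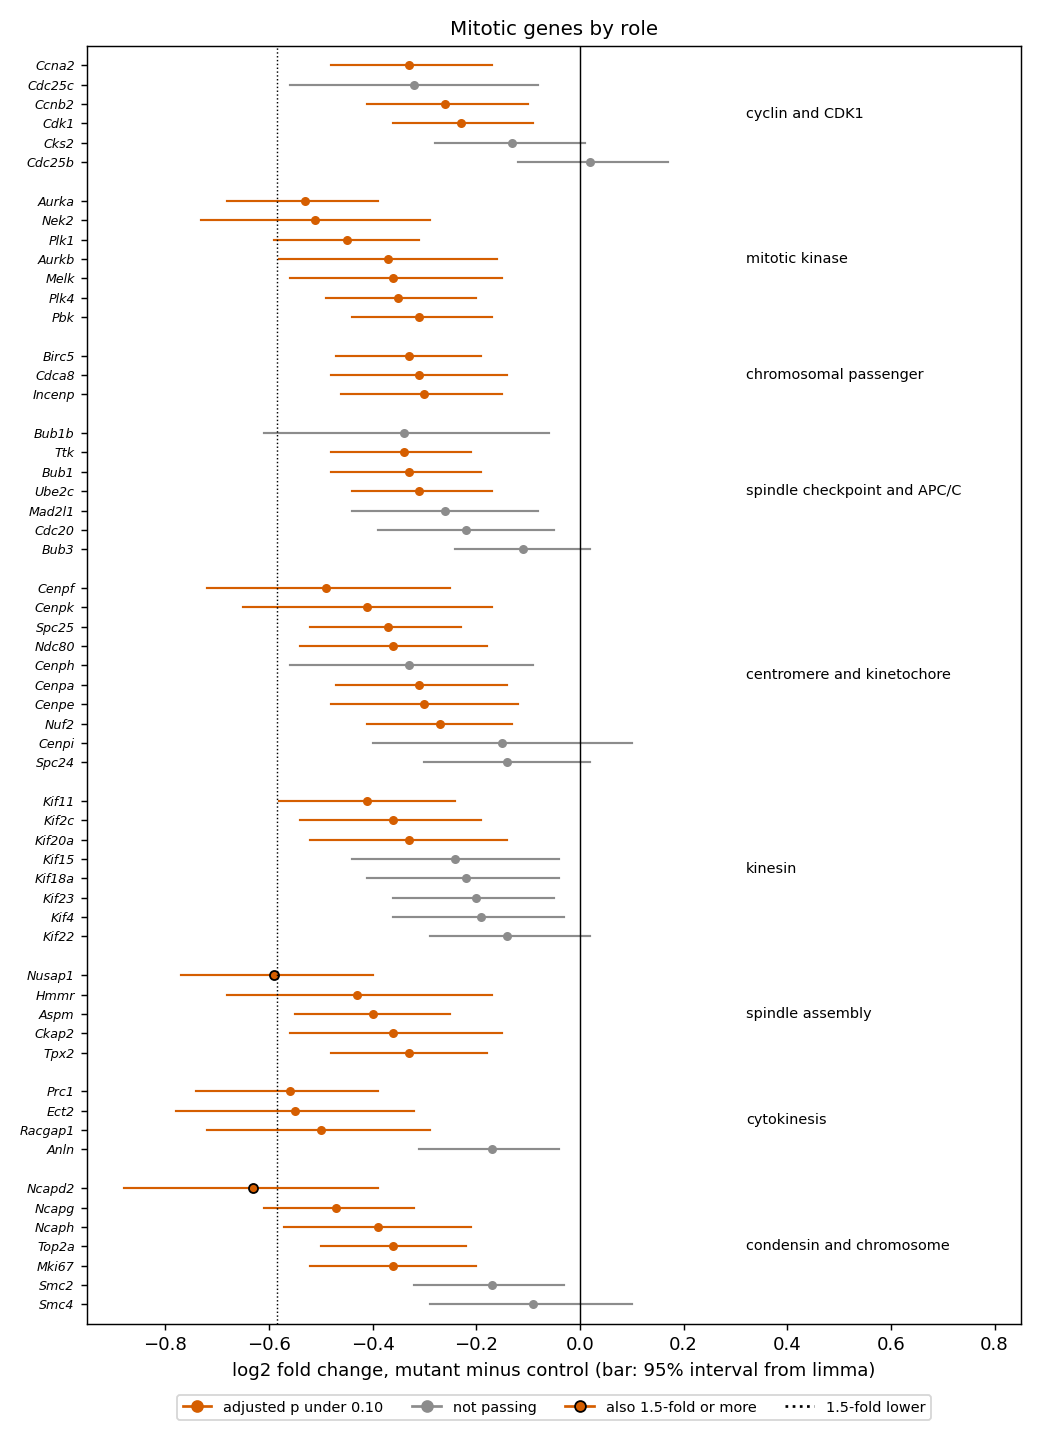
Log2 fold change (mutant minus control, horizontal axis) of the 57 mitotic genes, grouped by role, with the 95% interval from limma over 3 arrays in each group; orange genes have an adjusted p under 0.10 and the dotted line marks a 1.5-fold fall. Points lie between -0.63 (Ncapd2) and 0.02 (Cdc25b), and 39 of 57 are orange.

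The separation of the arrays was wider than the count of calls. On 54 of the 57 genes all mutant arrays lay under all control arrays, against 16.4% of all genes, and the exceptions were Cdc25b, Cenpi and Smc4. Averaged over the list, the control arrays lay at -0.04, 0.03 and 0.02 around their own mean and the mutant arrays at -0.29, -0.37 and -0.32. All 3 mutant pools were thus shifted to a like degree, and the second one the most. The genes were read on the same 6 arrays and can shift together, so counts of genes are not independent evidence on the groups. Mutant replicate 2 gave the lowest value of the 6 arrays for 37 genes, mutant replicate 3 for 12 and mutant replicate 1 for 8. The SD over 3 arrays had a median of 0.07 in control and 0.06 in mutant RPCs over these genes, and the standard error of the difference one of 0.07. Arrays are few, and the count of calls moved with them. It was 25 without control replicate 3, 19 without mutant replicate 2 and 20 without mutant replicate 3. None was higher and 56 of the 57 genes were negative each time. Over all 18193 genes, the count that fell went from 950 to 660, 388 and 416 in the same fits.

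**Figure D2:**
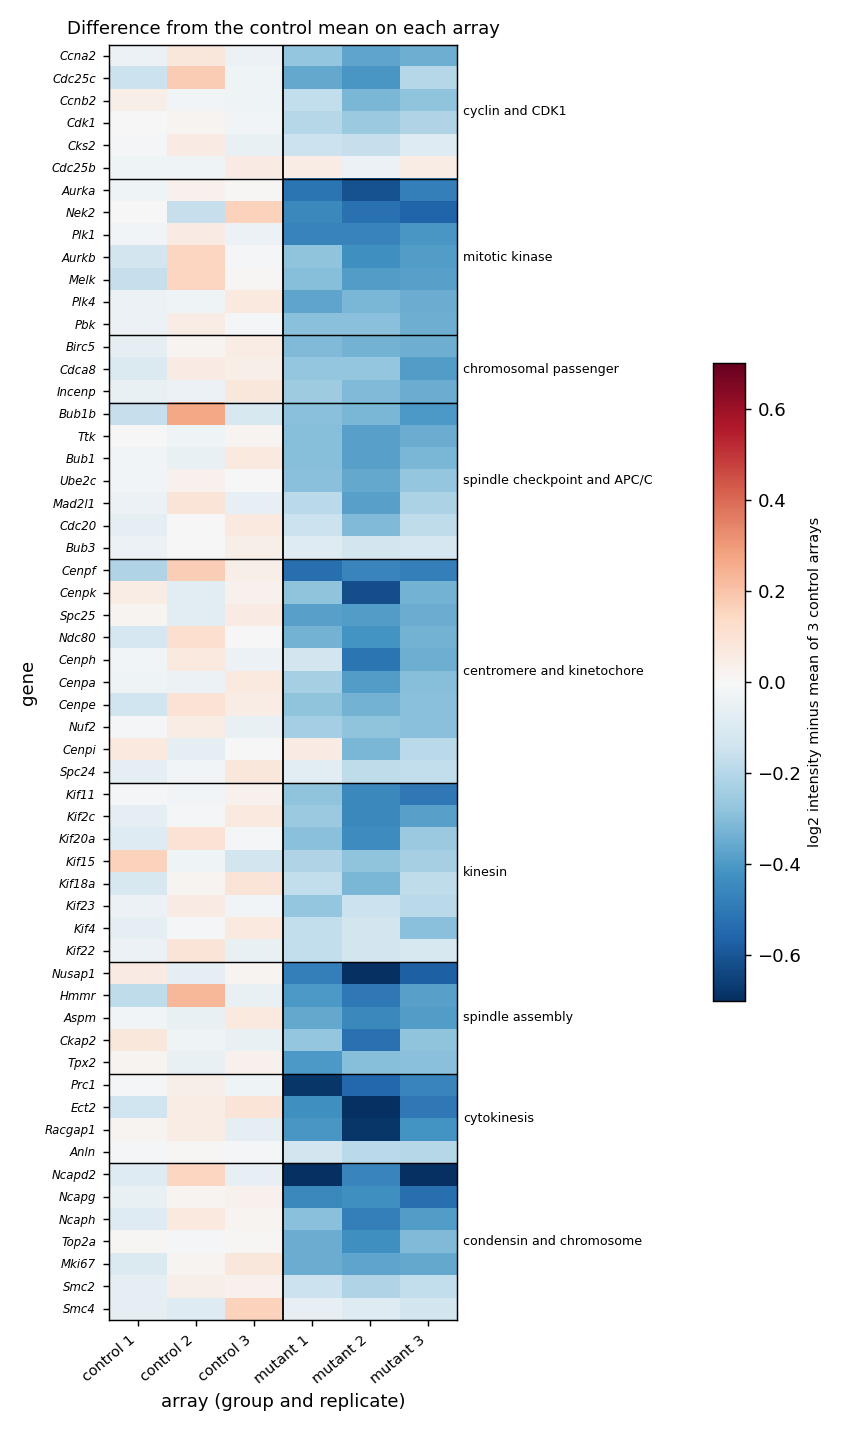
Difference of each gene (vertical axis) from the mean of the 3 control arrays, in log2 units, on each of the 6 arrays (horizontal axis), with genes grouped by role. The mutant columns are blue for nearly every gene, with list means of -0.29, -0.37 and -0.32, and the row of Cdc25b stays near 0.

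Most of the mitotic genes are strongly expressed, so that the background was also taken by level. By mean intensity, 45 of the 57 were among the top 25% of all genes, 11 among the next 25% and 1, Kif15, among the lowest 25%. In the top group 35 of the 45 mitotic genes fell, against 8.55% of all its genes. In the next group 4 of 11 fell, against 8.05%. Non-overlap with the mutant arrays below was found for 25.7% of all genes in the top group and 20.4% in the next one.

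**Figure D3:**
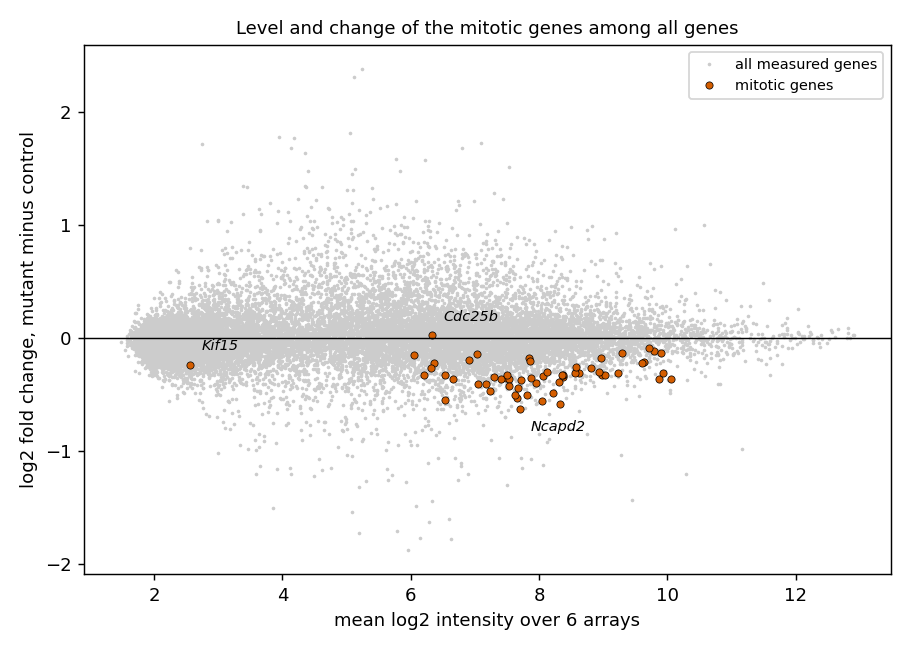
Mean log2 intensity over the 6 arrays (horizontal axis) against the log2 fold change, mutant minus control (vertical axis), for all 18193 genes in grey and the 57 mitotic genes in orange. The mitotic genes form a narrow band with a median of -0.33 at high levels, with Kif15 alone at low level.

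The promoters of these genes are shown to describe the list. Because it was chosen by function in mitosis, the shares of the letters below say nothing about the array values. Promoters of G2 and M phase genes are known for the cell cycle homology region, with the letters TTTGAA or TTCGAA, near CCAAT boxes, which bind NF-Y. Windows from 250 bases before to 50 after the transcription start (RefSeq, GRCm38.p6) were at hand for 49 of the 58 genes, as 54 windows. Matches were counted on both strands, TTCGAA reads the same on both, and different motifs may share bases at their ends. TTTGAA or TTCGAA was found in 68.5% of the 54 windows, against 19.2% of all 32851 windows and 15.1% of the windows of measured genes. CCAAT was found in 77.8% against 37.4% in either background, and at least 2 copies in 48.1% against 11.7% of all windows. Both motifs stood in 61.1% of the windows of mitotic genes and in 7.52% of all windows. The E2F letters TTTNNCGC were found in 18.5% against 5.17% of all windows, and the Sp1 letters GGGCGG in 77.8% against 35.7% of all windows and 52.3% of those of measured genes.

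The stretches below, each the 150 bases before a start, belong to the 5 genes with the lowest p among those that hold TTTGAA or TTCGAA before the start, and capitals mark these letters and CCAAT on either strand, so that TTCAAA and ATTGG are their reverse complements. They lie at chr5:45669775-45669924 on the plus strand for Ncapg, chr7:80294326-80294475 on the plus strand for Prc1, chr11:99024190-99024339 on the minus strand for Top2a, chr6:125191587-125191736 on the minus strand for Ncapd2 and chr3:27153879-27154028 on the minus strand for Ect2.
Ncapg: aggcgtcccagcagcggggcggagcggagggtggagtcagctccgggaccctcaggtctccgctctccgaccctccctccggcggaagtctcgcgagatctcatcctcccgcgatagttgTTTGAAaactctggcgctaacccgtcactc
Prc1: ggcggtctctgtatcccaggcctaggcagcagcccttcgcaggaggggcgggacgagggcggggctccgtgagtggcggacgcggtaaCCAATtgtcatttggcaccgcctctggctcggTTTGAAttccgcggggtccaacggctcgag
Top2a: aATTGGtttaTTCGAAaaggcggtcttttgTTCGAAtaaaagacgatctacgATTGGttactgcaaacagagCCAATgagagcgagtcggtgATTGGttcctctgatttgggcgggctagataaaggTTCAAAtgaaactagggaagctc
Ncapd2: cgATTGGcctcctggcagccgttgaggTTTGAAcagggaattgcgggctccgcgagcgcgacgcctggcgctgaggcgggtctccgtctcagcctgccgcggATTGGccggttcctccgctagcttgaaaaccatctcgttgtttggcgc
Ect2: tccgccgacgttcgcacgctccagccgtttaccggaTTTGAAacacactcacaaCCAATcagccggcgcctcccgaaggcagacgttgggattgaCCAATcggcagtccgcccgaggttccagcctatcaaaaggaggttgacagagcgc
In Ncapg and in Prc1 the TTTGAA began 30 bases before the start, and in Prc1 the CCAAT began 62 bases before it. Top2a held 3 copies of the first motif, beginning 140, 120 and 23 bases before the start, and 4 of CCAAT, at 149, 98, 78 and 58 bases. Ncapd2 and Ect2 had theirs farther upstream, at 123 and 114 bases. A match is a run of letters and not a measured binding site.

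The letters were found in like shares of the mitotic genes that fell and of those that did not pass. TTTGAA or TTCGAA was found for 24 of the 33 fallen genes of the promoter table and for 10 of the 15 that did not pass. CCAAT was found for 25 of the 33 and for 11 of the 15. Among the measured genes that are not on the list, 989 had a window with both motifs. Of these 7.58% fell and 6.47% rose, against 4.48% and 7.05% of the 7038 genes with neither. Only the 58 listed genes were left out of these groups. The other mitotic and S phase genes counted below were not, and their part in these shares was not tested.

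Of the 6 genes of cyclins, CDK1 and their regulators 3 fell, with a median of -0.24. Ccna2, the gene of cyclin A2, read 9.10, 9.22 and 9.10 in control and 8.87, 8.77 and 8.80 in mutant RPCs, a log2 change of -0.33 (SE 0.07, adjusted p = 0.0375 from limma). Ccnb2, the gene of cyclin B2, read 8.74, 8.68 and 8.67 in control and 8.53, 8.37 and 8.41 in mutant RPCs, a log2 change of -0.26 (SE 0.07, adjusted p = 0.0736 from limma). Cdk1, the kinase that these cyclins activate, went from 9.72, 9.74 and 9.70 to 9.52, 9.46 and 9.51, a log2 change of -0.23 (SE 0.06, adjusted p = 0.0671 from limma). The control and mutant arrays of these genes did not overlap, and the SD of Cdk1 was 0.02 in control and 0.03 in mutant RPCs. The calls on Ccnb2 and Cdk1 did not survive the loss of any 1 array (adjusted p from 0.102 to 0.198 and from 0.124 to 0.18 from limma), and Ccna2 did not pass without mutant replicate 2 (adjusted p = 0.121 from limma) or mutant replicate 3 (0.119). Cks2, which encodes a small CDK-binding protein, had a log2 change of -0.13 and did not pass.

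Neither of the CDK1-activating phosphatase genes of the list passed. Cdc25b read 6.30, 6.30 and 6.39 in control and 6.38, 6.29 and 6.38 in mutant RPCs, so that the groups overlapped fully, with a log2 change of 0.02 (95% interval -0.12 to 0.17, adjusted p = 0.878 from limma). This interval leaves out the median change of the list. Cdc25c had a log2 change of -0.32 with no overlap between groups, and did not pass by its brightest probe set (adjusted p = 0.127 from limma). Cdc25a, the related phosphatase gene counted below among other mitotic regulators, fell by 0.38 on the log2 scale (adjusted p = 0.0636 from limma). No test of the difference between these genes was run.

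All 7 mitotic kinases fell, with log2 fold changes from -0.53 to -0.31 and a median of -0.37. Aurka, the gene of the Aurora A kinase of centrosomes and spindle poles, read 7.89, 7.94 and 7.92 in control and 7.41, 7.31 and 7.44 in mutant RPCs, a log2 change of -0.53 (SE 0.06, adjusted p = 0.00836 from limma). Aurkb, whose Aurora B kinase corrects faulty kinetochore attachments, read 7.58, 7.86 and 7.70 in control and 7.43, 7.28 and 7.32 in mutant RPCs, a log2 change of -0.37 (SE 0.09, adjusted p = 0.0619 from limma). Pbk, a kinase gene of dividing cells, read 8.73, 8.82 and 8.76 in control and 8.48, 8.48 and 8.43 in mutant RPCs, the smallest change of the group at -0.31 (SE 0.06, adjusted p = 0.0312 from limma). The groups did not overlap for these 3 genes, and the gap was narrowest for Aurkb, whose first control array lay close to the mutant arrays. Aurkb passed without control replicate 1 and did not pass without any other array (adjusted p from 0.118 to 0.176 from limma), and Pbk did not pass without mutant replicate 3 (adjusted p = 0.111 from limma). Plk1, the Polo-like kinase of mitotic entry, had a log2 change of -0.45, Plk4, which starts centriole duplication, one of -0.35, Nek2, which acts in centrosome separation, one of -0.51, and Melk one of -0.36.

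The 3 chromosomal passenger genes fell by nearly the same amount. These proteins hold Aurora B at the inner centromere and later at the central spindle. Birc5, the gene of survivin, read 9.13, 9.21 and 9.25 in control and 8.89, 8.86 and 8.86 in mutant RPCs, a log2 change of -0.33 (SE 0.06, adjusted p = 0.0287 from limma). Incenp, the scaffold of the complex, read 9.04, 9.05 and 9.17 in control and 8.84, 8.78 and 8.74 in mutant RPCs, a log2 change of -0.30 (SE 0.07, adjusted p = 0.047 from limma). The mutant values of Birc5 were nearly identical, and neither gene overlapped between groups. Incenp did not pass without control replicate 3 or without any 1 of the mutant arrays (adjusted p from 0.107 to 0.148 from limma). Cdca8, the gene of borealin, had a log2 change of -0.31 and fell.

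Of the 7 genes of the spindle checkpoint and the APC/C, 3 fell and the other 4 were lower on all mutant arrays without passing. Ttk, the gene of the checkpoint kinase Mps1, read 7.48, 7.45 and 7.50 in control and 7.17, 7.09 and 7.12 in mutant RPCs, a log2 change of -0.34 (SE 0.06, adjusted p = 0.022 from limma). Bub3, which recruits other checkpoint proteins to kinetochores, read 9.80, 9.84 and 9.88 in control and 9.75, 9.72 and 9.73 in mutant RPCs, a log2 change of -0.11 (SE 0.06, adjusted p = 0.312 from limma). The Ttk arrays were well apart, while the Bub3 groups were separated by less than the range within control. The checkpoint kinase gene Bub1 (-0.33) and Ube2c (-0.31), the ubiquitin-conjugating enzyme of the APC/C, also fell. Bub1b had a log2 change of -0.34, close to that of Bub1, but its control arrays were spread more widely (SD 0.23), and it did not pass (adjusted p = 0.16 from limma). Mad2l1 had a log2 change of -0.26 and Cdc20, the APC/C activator that the checkpoint restrains, one of -0.22, and neither passed.

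Centromere and kinetochore genes fell in 7 of 10 cases, with a median of -0.32. Cenpf, a large protein of the outer kinetochore, read 8.26, 8.63 and 8.51 in control and 7.94, 8.01 and 7.99 in mutant RPCs, a log2 change of -0.49 (SE 0.10, adjusted p = 0.0408 from limma). Spc24 read 7.04, 7.09 and 7.19 in control and 7.03, 6.93 and 6.94 in mutant RPCs, the smallest change of the group at -0.14 (SE 0.07, adjusted p = 0.289 from limma). The Cenpf groups did not overlap, and those of Spc24 nearly touched. Without control replicate 3 or any 1 of the mutant arrays Cenpf did not pass (adjusted p from 0.101 to 0.13 from limma). Spc24 belongs to the NDC80 complex, which binds microtubules at the outer kinetochore, and its other members fell, with log2 fold changes of -0.36 (Ndc80), -0.27 (Nuf2) and -0.37 (Spc25). Cenpa, the histone H3 variant that marks the centromere, had a log2 change of -0.31 and the kinetochore motor Cenpe one of -0.30, and both fell. Among 3 genes of the inner kinetochore network, Cenpk fell (-0.41), Cenph did not pass (-0.33) and Cenpi, whose first mutant array equalled the highest control array at 6.19, did not pass (-0.15).

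Of the 8 kinesins 3 fell, and their median of -0.23 was close to that of the cyclin group (-0.24). Kif11, the motor that pushes the spindle poles apart, read 7.37, 7.36 and 7.40 in control and 7.09, 6.93 and 6.87 in mutant RPCs, a log2 change of -0.41 (SE 0.07, adjusted p = 0.0265 from limma). Kif22, a chromokinesin that moves chromosome arms, read 9.32, 9.44 and 9.31 in control and 9.19, 9.23 and 9.24 in mutant RPCs, a log2 change of -0.14 (SE 0.06, adjusted p = 0.284 from limma). The control values of Kif11 were tight and its mutant values spread, and the Kif22 groups were apart by less than the range within control. Kif2c, which depolymerises microtubules at centromeres, fell by 0.36 on the log2 scale and Kif20a, a motor of the central spindle, by 0.33. Kif4, Kif15, Kif18a and Kif23 had log2 fold changes from -0.24 to -0.19 and did not pass, and Kif15, at a mean of 2.56, lay below the array median of 3.70.

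All 5 spindle assembly genes fell, and 1 of them was called by the methods' rule. Nusap1, which encodes a microtubule-bundling protein near the chromosomes, read 8.67, 8.54 and 8.63 in control and 8.13, 7.90 and 8.05 in mutant RPCs, which is 66.6% of the control level and a log2 change of -0.59 (SE 0.08, adjusted p = 0.0118 from limma). Tpx2, the activator of Aurora A on the spindle, read 8.54, 8.47 and 8.55 in control and 8.12, 8.22 and 8.23 in mutant RPCs, the smallest change of the group at -0.33 (SE 0.06, adjusted p = 0.0315 from limma). Both genes left a gap between the groups that was wider than the range within either. Nusap1 passed on adjusted p whichever array was left out and missed the fold of 1.5 when mutant replicate 2 (-0.52) or either of control replicates 1 (-0.56) and 3 (-0.58) was left out, while Tpx2 did not pass without mutant replicate 1 (adjusted p = 0.108 from limma) or when its probe sets were replaced by their median (adjusted p = 0.138 from limma). That median gave Nusap1 a log2 change of -0.31. Hmmr (-0.43), Aspm (-0.40) and Ckap2 (-0.36) also fell, of which Aspm encodes a spindle pole protein that human microcephaly is known for.

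Cytokinesis genes fell in 3 of 4 cases, with a median of -0.53, the largest of the 9 roles, between which no test was run. Prc1, which bundles the microtubules of the central spindle, read 8.31, 8.37 and 8.29 in control and 7.64, 7.77 and 7.86 in mutant RPCs, which is 67.7% of the control level and a log2 change of -0.56 (SE 0.07, adjusted p = 0.011 from limma). Anln, the gene of the actin-binding anillin, read 7.93, 7.95 and 7.93 in control and 7.80, 7.74 and 7.73 in mutant RPCs, a log2 change of -0.17 (SE 0.06, adjusted p = 0.134 from limma). The Prc1 arrays were far apart, and those of Anln close but not overlapping. Ect2, the activator of RhoA at the division furrow, had a log2 change of -0.55 and its partner Racgap1 one of -0.50, and both fell.

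Condensin and chromosome genes held the largest and nearly the smallest change of the whole list. Ncapd2, a subunit of condensin I, read 7.92, 8.17 and 7.96 in control and 7.28, 7.56 and 7.30 in mutant RPCs, which is 64.5% of the control level and a log2 change of -0.63 (SE 0.10, adjusted p = 0.0206 from limma). Smc4, one of the ATPases of the condensin core, read 9.68, 9.66 and 9.92 in control and 9.69, 9.66 and 9.62 in mutant RPCs, a log2 change of -0.09 (95% interval -0.29 to 0.10, adjusted p = 0.574 from limma). The Ncapd2 groups were far apart, whereas those of Smc4 overlapped and only control replicate 3 stood higher. Ncapd2 passed on adjusted p whichever array was left out, and missed the fold of 1.5 without control replicate 2 (-0.56) or mutant replicate 1 (-0.58). Without moderation of the variance Ncapd2 did not pass (adjusted p = 0.122 from that limma fit). The median of its probe sets gave -0.54, which also missed the fold. The other condensin I subunits Ncapg (-0.47) and Ncaph (-0.39) fell, and the other ATPase gene Smc2 had a log2 change of -0.17 and did not pass (adjusted p = 0.162 from limma).

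The usual markers of cycling cells fell with the others. Top2a, the topoisomerase of mitotic chromosomes, read 10.24, 10.23 and 10.24 in control and 9.88, 9.81 and 9.93 in mutant RPCs, a log2 change of -0.36 (SE 0.06, adjusted p = 0.0205 from limma). Mki67, the gene of the Ki67 antigen, read 9.95, 10.07 and 10.13 in control and 9.70, 9.68 and 9.69 in mutant RPCs, a log2 change of -0.36 (SE 0.07, adjusted p = 0.0296 from limma). Neither overlapped between groups, and the control SD of Top2a and the mutant SD of Mki67 were both 0.01. Both passed whichever array was left out, at 77.7% and 77.9% of the control level. In bulk samples such as these pools, fewer cells in mitosis, another mix of cell types and less transcript per cell cannot be told apart.

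Other probe sets of the same genes gave a check on the choice of probe set. They read the same pools on the same arrays, so they are no independent evidence on the groups. The mitotic genes had 128 probe sets in all, and 37 of the genes had several. Of the 71 that were not the brightest, 66 had a negative log2 fold change, against 53.7% of all probe sets that name 1 gene, and 32 fell, against 4.66%. None rose, and the 5 with a positive value lay below the array median. Their median was -0.35. In 7 genes that did not pass by the brightest probe set another one fell, which brings the genes with at least 1 fallen probe set to 46 of 57. These were Bub1b, Bub3, Cdc20, Cdc25c, Kif22, Smc2 and Smc4.

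For some genes the probe sets gave different sizes. The second probe set of Bub3 fell by 0.42 on the log2 scale (adjusted p = 0.0265 from limma) where the brightest had -0.11. For Kif22 the other probe sets fell by 0.43 and 0.45 against -0.14, for Smc4 by 0.33 and 0.37 against -0.09, and for Cdc20 by 0.40 and 0.29 against -0.22. In the opposite direction, the second probe set of Nusap1 had a log2 change of -0.04 (adjusted p = 0.753 from limma), the second of Aurkb one of -0.16 and 1 of 5 of Incenp one of -0.06. Called lower by the methods' rule were also dimmer probe sets of Hmmr (-1.02), Cenpf (-0.88), Ttk (-0.83) and Top2a (-0.63), and that of Ttk lay below the array median.

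**Figure D4:**
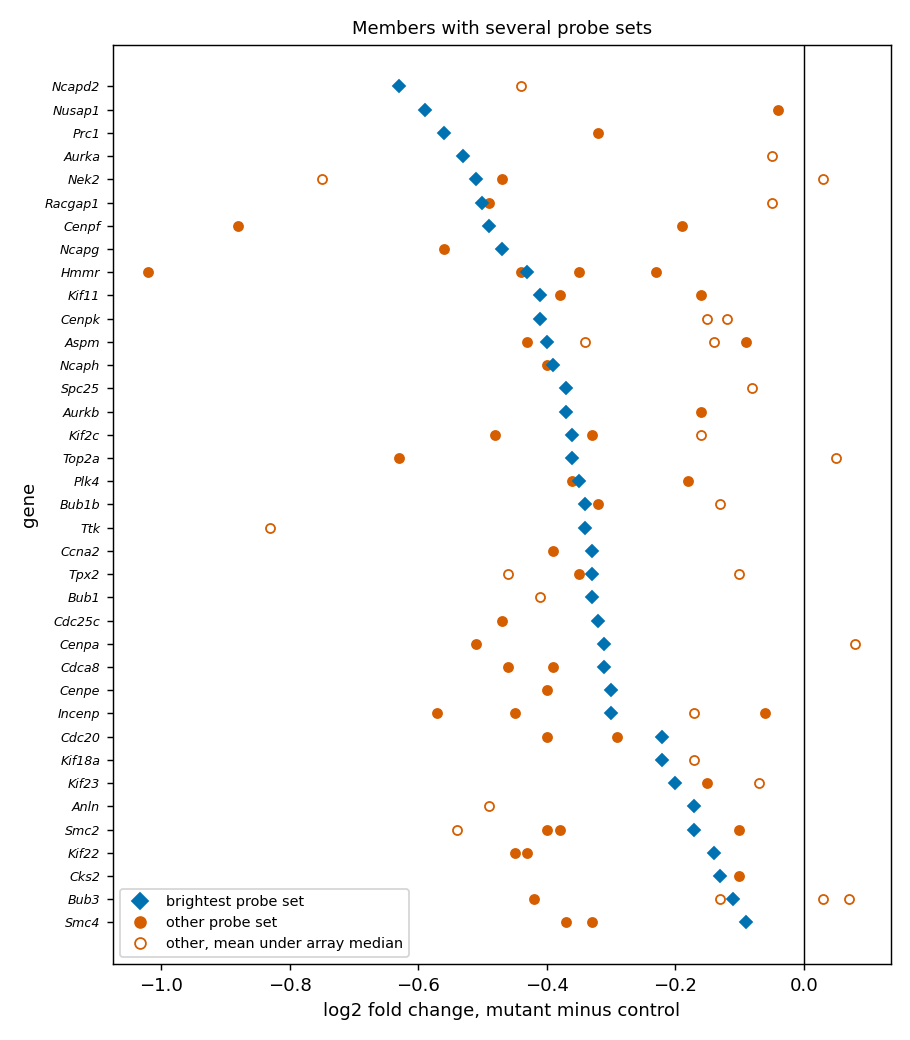
Log2 fold change (mutant minus control, horizontal axis) of each probe set of the 37 mitotic genes (vertical axis) that have several, with the brightest as a blue diamond and the others as orange circles, open where the mean lies under the array median. Of the 71 other probe sets 66 lie left of 0, and the 5 to its right are open.

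Genes outside the list, most of them mitotic, came from 5 further lists made by function, with 94 measured genes. Of these 34 fell and none rose. Among 18 other mitotic regulators 9 fell, with a median of -0.36. The largest falls were in Bora, which activates Aurora A toward Plk1, and in Haspin, the kinase of histone H3 that recruits the passenger complex, both at -0.81 (adjusted p = 0.0255 and 0.0133 from limma). Fbxo5, an inhibitor of the APC/C, had a log2 change of -0.62 and Cdca5, which protects cohesin, one of -0.59, and both were called by the methods' rule.

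Among 25 other spindle and cytokinesis genes 13 fell, with a median of -0.28. Those called by the methods' rule were the kinesin genes Kifc1 (-0.71) and Kif18b (-0.61) and the spindle gene Spag5 (-0.66). This list also held Kif5b (0.10) and Kif3a (0.03), kinesin genes of cargo transport, and neither passed. Among 27 other centromere and kinetochore genes 12 fell, with a median of -0.25, from -0.62 for Nsl1 to 0.05 for Knl1. None of 12 APC/C subunit genes passed (limma, 1 at an unadjusted p under 0.05), with a median of -0.07, and none of 12 genes of cohesin and the other condensin subunits (limma, 5 at an unadjusted p under 0.05), with a median of -0.14. No test of the difference between these lists was run.

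Genes of the neighbouring step of the cell cycle moved with the mitotic ones. Of 35 genes of S phase and replication 29 fell and none rose, with a median of -0.37, and none reached the fold of the methods' rule. Of 14 genes of factors that control G2 and M phase genes 3 fell, with a median of -0.15. Lin52, a subunit of the MuvB complex that binds the cell cycle homology region, was the only one called (-0.59, adjusted p = 0.0702 from limma). Foxm1 (-0.47, adjusted p = 0.0153 from limma) and E2f1 (-0.23, adjusted p = 0.0948 from limma) fell by less than 1.5-fold. On the same list Lin9 (-0.13), Lin37 (-0.06) and Lin54 (-0.08) did not pass.

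**Figure D5:**
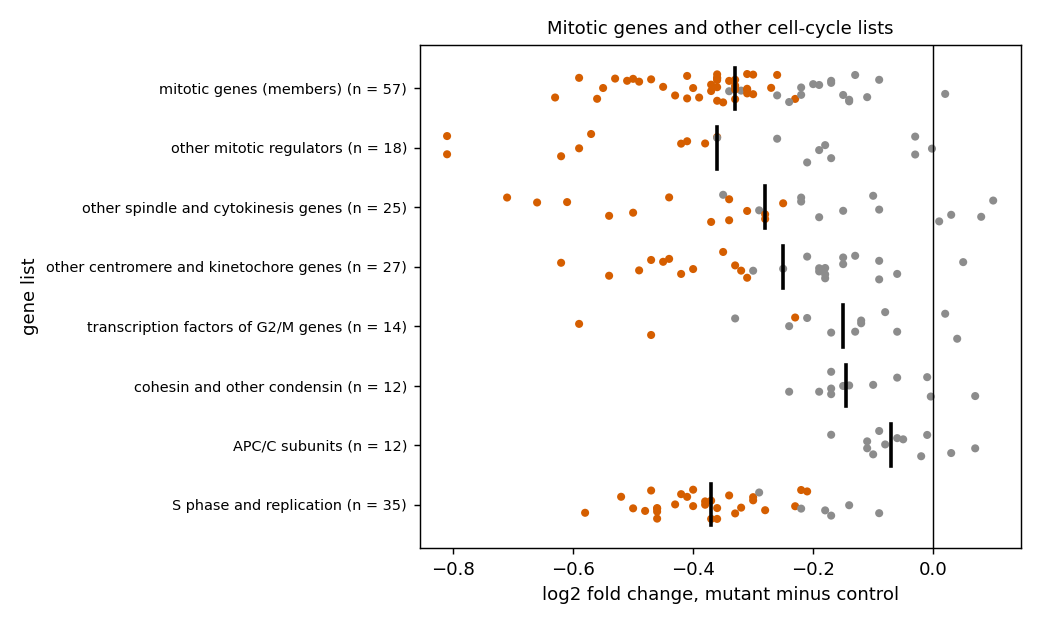
Log2 fold change (mutant minus control, horizontal axis) of the genes of 8 lists (vertical axis, each with its number of measured genes), with genes at an adjusted p under 0.10 in orange, the others in grey and the median as a black bar. The medians run from -0.37 (S phase and replication) and -0.33 (the 57 mitotic genes) to -0.07 (APC/C subunits).

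Markers of cell types differed between the same arrays. The paper names Atoh7, Neurod1 and Crx, counted here as markers, among reported Pax6 targets. It also reports less Nr2e1 and Ccnd1 transcript in the mutant. For these genes a response to Pax6 loss and another mix of cells cannot be told apart here. Of 10 retinal progenitor markers 6 fell and none rose, and their summed linear intensity was 8047 to 8520 in control and 5572 to 5788 in mutant pools. Sfrp2 took 60.7% of that change, and the sums without it were 4975 to 5189 and 4003 to 4151. Of 11 neuron markers 7 fell, with sums of 2084 to 2752 in control and 1069 to 1171 in mutant pools. Dcx lay below the array median. Atoh7 took 78.5% of that change, and the sums without it were 459 to 719.4 and 265.3 to 333.4. Of 13 pigment epithelium markers 11 rose, with sums of 6367 to 7687 in control and 10177 to 10274 in mutant pools. Rpe65 lay below the array median.

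Markers of tissues around the retina rose too. Of 14 lens and surface ectoderm markers 5 rose, with sums of 2973 to 4298 in control and 5378 to 5751 in mutant pools. Bfsp1 and Prox1 lay below the array median. Of 11 mesenchyme markers 6 rose (593.9 to 634.9 against 939.9 to 1277), with Foxc2 and Twist1 below the array median, and of 10 endothelial markers 7 rose (721.2 to 981.8 against 1261 to 1363). Of 7 blood cell markers 1 rose (6660 to 8248 against 8657 to 9175), with Hba-a1 below the array median. Hbb-bh1 took 75.5% of that change, and without it the sums overlapped (5801 to 6715 against 6554 to 6794). Of 7 photoreceptor precursor markers 2 rose and 1 fell, with Rcvrn and Nrl below the array median. Their sums overlapped (312.3 to 376.2 against 371.3 to 398.5). The rise of Crx was 175% of the change in the sum, and without Crx the sums were 300 to 360.7 and 303.4 to 313. In the 4 lists of pigment epithelium, lens, mesenchyme and endothelium no gene took more than 23.8% of the change, and the sums did not overlap without the leading gene.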

How the data were processed

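RNA from 3 control and 3 mutant pools of sorted GFP-positive cells was hybridised to Affymetrix Mouse 430 2.0 arrays. The authors summarised probes by RMA and deposited a linear intensity for each probe set. The methods name RACE and Bioconductor for this step, and the submitters' notes list RMA with Affymetrix Expression Console, without versions. RMA sets all arrays to 1 distribution, so values are relative to the other genes of an array, and array medians ran from 12.9 to 13.1. The deposited intensities were taken to log2, 64 control probe sets were left out, and 45037 were fitted with limma 3.58.1 in R 4.3.3 (lmFit, eBayes, Benjamini-Hochberg over all). The procedure was tested on simulated data with independent noise for each probe set, which hold no shift shared within a pool. The methods give thresholds and a check with SAM but no test for the p-value. Probe sets were named from the platform annotation, updated to the RefSeq gene table of GRCm38.p6: 34945 name 1 gene, 932 several (left out) and 9160 none here. The number of arrays limits the precision.

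The members, lists and tests were chosen with earlier results of these data known. Array values were given for members called by the methods' rule, the largest and smallest change of each role, and any positive change. They were also given for Mki67, Ccnb2, Cdk1, Top2a and Aurkb. Genes of other cell-cycle lists were named if called or at the extremes, and Cdc25a, E2f1, Foxm1, Kif3a, Lin9, Lin37 and Lin54 besides. Alternatives were another scaling, offset, filter, choice of probe sets or variance model, and each array left out.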

Additional observations from a re-analysis of the deposited data

How the results depend on the processing

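Under 16 alternatives none of the 57 mitotic genes rose, the median log2 fold change lay between -0.36 and -0.29, and every measured gene but 1 stayed negative. The count of fallen genes, 39, became 20 without moderation of the variance, and between 19 and 33 without 1 array at a time. The lowest values were without mutant replicate 2 (19), mutant replicate 3 (20) and control replicate 3 (25). Over all 18193 genes, the count that fell went from 950 to 407 without moderation, and to 388, 416 and 660 without these arrays. The mitotic count was 25 with the replicate number as a block, against 577 of all genes. The numbers do not pair the pools (correlations of same-numbered deviations -0.01062, -0.0006384 and -0.008479), so the replicate block is given only here. An offset of 16 or a trend in the variance gave 49, against 1457 and 1423 of all genes. The genes Aspm, Aurka, Birc5, Mki67, Ncapg, Nusap1, Plk1, Plk4, Prc1, Top2a and Ttk passed in all settings, 11 of the 39. The count called by the methods' rule, 2, became 1 with array medians subtracted (Ncapd2), with an offset of 16 (Ncapd2) and without moderation (Nusap1), 4 by the median of a gene's probe sets (Cenpf, Nek2, Top2a and Ttk), and from 1 to 3 without 1 array at a time. It was 1 (Ncapd2) without control replicate 3 and without mutant replicate 2. The probe sets chosen ended the calls of Incenp (-0.06) and Tpx2 (-0.37, adjusted p = 0.138 from limma) by their median, brought in Kif22 (-0.43) and Smc4 (-0.33) by their median and Bub3 (-0.42) without probe sets of types that can bind related transcripts, and moved the sizes of Aurka (-0.29), Nusap1 (-0.31), Anln (-0.33), Ttk (-0.59), Top2a (-0.63) and Cenpf (-0.83) by their median and Prc1 (-0.32) without those types. For other changes the cause was not tested. A SAM-type statistic was not run.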
